A study of Homo sapiens with 4 samples.

Results

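The genes described here are 32 members of the p53 pathway, chosen by symbol as a list of p53 targets and feedback regulators. They were read from the gene table of an RNA-seq experiment that counted 63677 genes. HCT116 cells, an established human colorectal cancer line, received either the anti-GAA ASO or the control ASO by transfection. An antisense oligonucleotide (ASO) of this kind is a gapmer, a short DNA-based strand that pairs with RNA and lets RNase H cut it. The anti-GAA ASO is complementary to tandem GAA repeats, the sequence enriched in RNAs bound by the origin recognition protein ORC1, and the control ASO has a non-targeting sequence. Each condition had 2 replicate libraries from 1 cell line, all 4 labelled with 48 h of transfection, and no untreated library or library with a second ASO against the same repeats was analysed here. The study speaks of duplicate experiments, with no label that ties a library to its own culture, and the p-values measure the spread between these libraries.

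p53 is a transcription factor that MDM2 keeps at a low level in unstressed cells by marking it for degradation. Kinases that sense DNA damage or replication stress release it from MDM2, and it then binds a response element made of a pair of similar decamers near its target genes. Its targets halt the cell cycle, switch on cell death, repair DNA and adjust metabolism, and a group of them, MDM2 among them, feeds back on p53 itself. The comparison addresses whether these targets differed between cells whose GAA-repeat RNAs were targeted and control cells.

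Total counts on genes ran from 10538284 to 17894953 per library, and anti-GAA ASO replicate 1 was the shallowest. Of the colon epithelial markers, 7 of 8 had counts, with a summed level of 2575 to 2907 CPM (counts scaled to the TMM-adjusted size of the library) with the anti-GAA ASO and 2669 to 2911 CPM with the control ASO. KRT19 was the largest part of the sum, with 1327 and 1639 CPM in the anti-GAA libraries and 1114 and 1366 CPM in the controls. EPCAM (log2 fold change −0.21), CDH1 (−0.40), KRT8 (−0.27) and KRT18 (−0.54) were instead lower in both anti-GAA libraries. CDX2 was higher in both, with 23.03 and 21.75 CPM against 19.63 and 17.28 CPM in the controls (log2 fold change 0.28). The part of these markers in the results on the members was not tested. CDX1 held no count in any library and VIL1 was close to none. The fibroblast markers had counts for 3 of 6 genes and summed to 10.3 to 13.2 CPM with the anti-GAA ASO and 12.1 to 14.8 CPM with the control ASO, nearly all from COL1A1, while DCN and LUM were at 0. The immune markers (3 of 5 with counts) and endothelial markers (2 of 3) stayed below 1 CPM in sum in every library, with CD3E, LYZ and PECAM1 at 0. In these bulk samples fewer cells of a kind and less RNA per cell cannot be told apart.

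Of the 32 members, 31 passed the filter on low counts, and SPATA18, which acts in mitochondrial quality control, had a single count in anti-GAA ASO replicate 1 and none elsewhere. No member passed the test between the ASOs. The log2 fold changes (anti-GAA ASO over control ASO) ran from −0.81 for DDB2 to 0.52 for CCNG2, with a median of −0.18 where the median over all 15116 tested genes was 0.01. Values lay below 0 for 23 members and above 0 for 8, or 25.8% above 0, against 48.4% below and 51.6% above 0 among all tested genes. In edgeR's quasi-likelihood test 0 genes of the whole table, or 0%, had an adjusted p under 0.05, and the smallest adjusted p was 0.671. DESeq2 called 5 genes, all lower, none of them a member.

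At an unadjusted p under 0.05 in edgeR, 4 members were lower with the anti-GAA ASO (DDB2, FAS, PLK2 and GADD45A) and none was higher, where 3.46% of all tested genes were lower and 1.02% higher by the same rule. DESeq2 gave 1 lower member at that unadjusted p and none higher, against 2.1% and 0.662% of all genes. For 11 members (35.5%) both anti-GAA libraries lay below both control libraries, and for 3 (9.68%, BBC3, ZMAT3 and GDF15) both lay above. Over all tested genes the shares without overlap were 16.9% lower and 15.5% higher. The median of the members depended on control ASO replicate 2, since it was −0.03 without that library, with 20 members below 0, and between −0.28 and −0.25 when one of the others was left out, with 19 to 25 below 0.

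**Figure D1:**
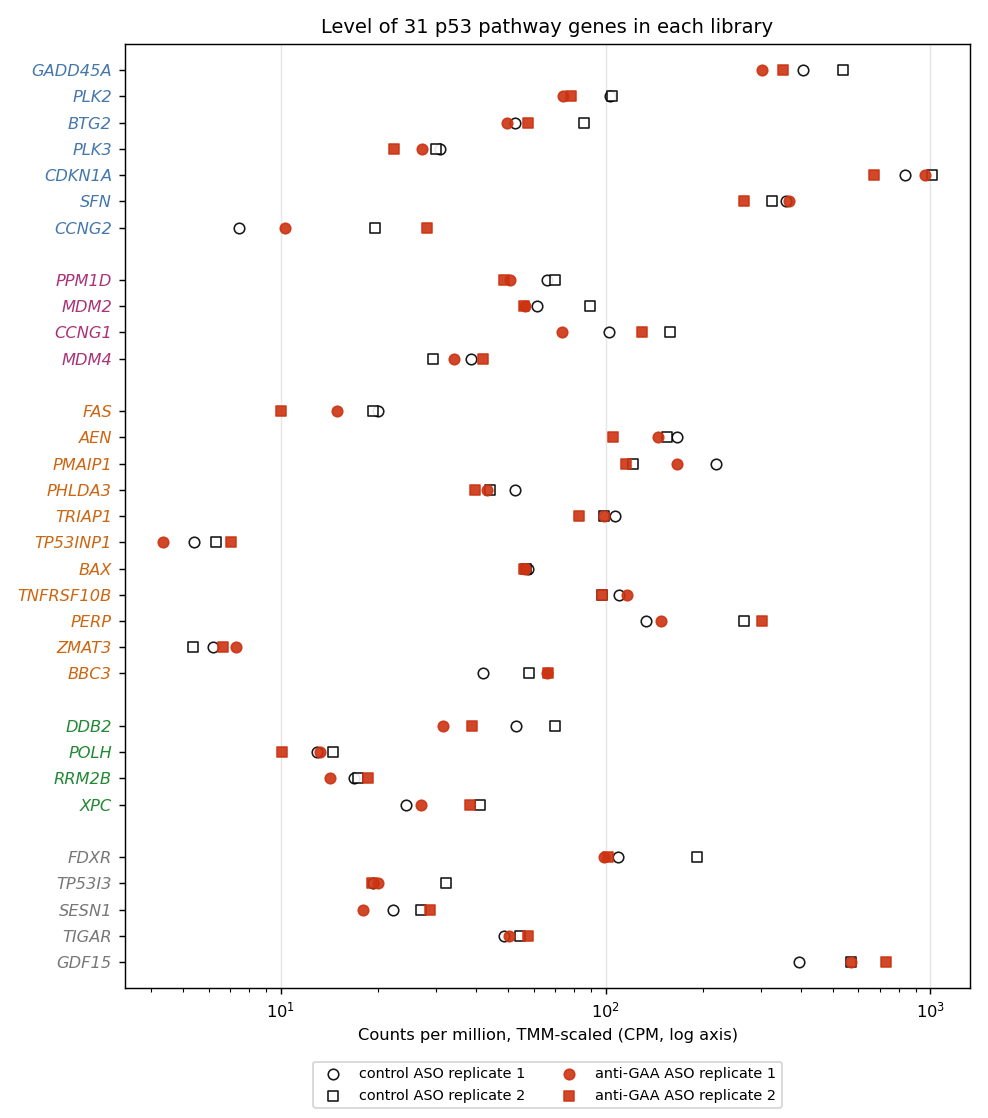
Level of the 31 members that passed the filter, in CPM on a log axis, with open symbols for the control ASO, filled symbols for the anti-GAA ASO, circles for replicate 1 and squares for replicate 2. Genes are grouped from top to bottom as arrest, feedback, apoptosis and survival, repair, and metabolism and stress genes, and DDB2, PLK2, PPM1D and FAS have both filled symbols left of both open symbols.

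The members differed widely in level. Per kilobase of annotated exon, the mean level in control cells was 308.5 CPM for CDKN1A, 262 CPM for SFN, 245 CPM for GADD45A and 231 CPM for GDF15. The next gene, PMAIP1, had 77.6 CPM per kilobase.

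The response element was looked for in the promoters of the members, which were listed as p53 targets and feedback regulators. RefSeq promoter windows (GRCh38.p14, 250 bases before to 50 after a start) matched 27 of the 32 members, with 38 windows. The p53 consensus decamer, which reads the same on both strands, occurred in 6 of these windows (15.8%) and in 6.63% of all 35116 windows. A full element was a pair of decamers with at most 1 base between them and at most 2 mismatches in all. Both cores had to read CWWG, where W is A or T. Such an element occurred in 3 member windows (7.89%) and in 0.276% of all windows. Both searches read the same letters, so that the full elements overlap the decamer matches. The sequences are shown in the 5′ to 3′ direction of the gene with the element or decamer in capitals, the full elements first.
DDB2, chr11:47214975-47215003, plus strand: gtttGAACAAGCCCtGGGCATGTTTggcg
FAS, chr10:88991304-88991333, plus strand: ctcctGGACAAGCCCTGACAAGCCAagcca
AEN, chr15:88621301-88621330, plus strand: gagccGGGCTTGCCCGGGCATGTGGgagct
FDXR, chr17:74872991-74873010, minus strand: ggagcGGGCTTGCCCtgcgg
PLK2, chr5:58460204-58460223, minus strand: ggacaAGACTTGCTTcccgg
SESN1, chr6:109009023-109009042, minus strand: cgtctGGACAAGTCTccaca

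The DDB2 element had 0 mismatches and began 5 bases after the start. Those of FAS and AEN had 2 mismatches and began 122 and 34 bases before theirs (positions −122 and −34). Each position is counted from the start of the window that held the match. DDB2, FAS, FDXR and SESN1 also had windows at other starts that held no match. The decamers of FDXR, PLK2 and SESN1 began at −11, −132 and −49. All 6 of these genes had a log2 fold change below 0, with a median of −0.52, and for 5 of them both anti-GAA libraries lay below both controls, as for 16.7% of all tested genes with a window. The 20 tested members with a window but no match had 13 values below 0 and a median of −0.14. Outside the members, the 32 tested genes with a full element had 18 values below 0 (56.2%), a median of −0.02 and 28.1% lower without overlap. The 798 with a decamer had 49.4% below 0, a median of 0.0049 and 15.9% lower without overlap. Among all 10558 tested genes with a window 47.1% lay below 0. The search was added after the differences had been seen, was not tested, and says nothing about binding. Elements with another core or more than 2 mismatches were not counted, so members with no match may still hold such elements. Elements outside the windows, such as those known upstream of CDKN1A, were not searched.

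Among the 7 arrest genes, 6 had log2 fold changes below 0 and 1 above, with a median of −0.30. CDKN1A, which encodes the cyclin-dependent kinase inhibitor p21, had 964 and 671 CPM in the anti-GAA libraries and 837.5 and 1011 CPM in the controls, for replicates 1 and 2 in that order, as for all pairs of values that follow. One anti-GAA library thus lay between the controls and the other below both. The log2 fold change was −0.18 (SE 0.24, edgeR adjusted p = 0.996) and 0.06 without anti-GAA ASO replicate 2.

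GADD45A, a stress-induced protein of the G2/M checkpoint, had 303.5 and 351 CPM in the anti-GAA libraries and 406 and 539 CPM in the controls. Both anti-GAA libraries were lower, at a log2 fold change of −0.53 (SE 0.22, edgeR adjusted p = 0.996). PLK2, a polo-like kinase, had 73.8 and 78.3 CPM against 103.5 and 104.6 CPM. Its replicates lay close together in each condition and did not overlap between them, and the log2 fold change was −0.45 (SE 0.19, edgeR adjusted p = 0.996). PLK3, another polo-like kinase, was also lower in both anti-GAA libraries, at −0.30.

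BTG2, an anti-proliferative partner of the deadenylase complex, had a log2 fold change of −0.37, which rested on control ASO replicate 2 (86.1 CPM where the other libraries held 49.6 to 57.9 CPM), without which it was 0.04. SFN, the cell cycle inhibitor 14-3-3 sigma, was at −0.11, and at 0.11 without anti-GAA ASO replicate 2. CCNG2, cyclin G2, was the arrest gene above 0, at 0.52. It had 10.3 and 28.2 CPM in the anti-GAA libraries and 7.43 and 19.6 CPM in the controls, so that replicate 2 exceeded replicate 1 in both conditions by more than the conditions differed. Its log2 fold change was −0.39 without anti-GAA ASO replicate 2, −0.02 without control ASO replicate 1 and 1.39 without control ASO replicate 2.

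Among the 4 feedback genes, 3 were below 0 and 1 above, with a median of −0.39. MDM2, the ubiquitin ligase that degrades p53, had 56.6 and 56.2 CPM in the anti-GAA libraries and 61.3 and 89.6 CPM in the controls. Both anti-GAA libraries were lower, narrowly so against control ASO replicate 1. The log2 fold change was −0.42 (SE 0.24, edgeR adjusted p = 0.996) and −0.11 without control ASO replicate 2.

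PPM1D, the WIP1 phosphatase that removes activating phosphates from p53 and its kinases, had 50.6 and 48.6 CPM against 66.2 and 70.1 CPM. The conditions were well apart next to the gap within each, and the log2 fold change was −0.46 (SE 0.19, edgeR adjusted p = 0.996). CCNG1, cyclin G1, which guides a phosphatase to MDM2, was at −0.35, with 73.5 and 129.8 CPM against 102.5 and 157 CPM. Its conditions overlapped, and its value was 0.01 without anti-GAA ASO replicate 1 and −0.82 without anti-GAA ASO replicate 2. MDM4, the relative of MDM2 that blocks p53 transactivation, was at 0.17, and at −0.01 without control ASO replicate 2.

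Of the 11 apoptosis and survival genes, 7 were below 0 and 4 above, with a median of −0.03. FAS, a death receptor, had 14.95 and 10 CPM in the anti-GAA libraries and 19.9 and 19.3 CPM in the controls. Both anti-GAA libraries were lower, at a log2 fold change of −0.66 (SE 0.27, edgeR adjusted p = 0.996). AEN, an exonuclease that takes part in apoptotic DNA breakdown, had 144.9 and 105.1 CPM against 166 and 155 CPM. It too was lower in both, more so in replicate 2, and its log2 fold change was −0.36 (SE 0.22, edgeR adjusted p = 0.996). FAS and AEN are the members with a full p53 element shown above in this group.

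BBC3, which encodes the BH3-only protein PUMA, differed in the other direction, with 66.1 and 66.4 CPM in the anti-GAA libraries and 42.0 and 58.1 CPM in the controls. Both anti-GAA libraries were higher, at a log2 fold change of 0.40 (SE 0.23, edgeR adjusted p = 0.996). ZMAT3, an RNA-binding zinc finger protein that acts in splicing, was also higher in both at 0.26, at a level of 5.37 to 7.27 CPM. BAX, the pore former of the mitochondrial outer membrane, held 56.3 to 57.9 CPM in the 4 libraries and had a log2 fold change of −0.03 with a 95% interval of −0.48 to 0.43.

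The other members of this group had smaller values or values that turned with a single library. PHLDA3, a repressor of AKT, was lower in both anti-GAA libraries at −0.22, and TRIAP1, a mitochondrial inhibitor of apoptosis, was at −0.18. PMAIP1, which encodes NOXA, was at −0.27, and at 0.21 without control ASO replicate 1, the library in which it was highest (218 CPM). PERP, a desmosome protein, was at 0.18, with 148 and 303 CPM against 133.5 and 266 CPM, and at −0.43 without anti-GAA ASO replicate 2 and −0.25 without control ASO replicate 1. TNFRSF10B, the TRAIL death receptor DR5, was at 0.05 and at −0.05 when libraries were scaled to their total counts, and TP53INP1, a stress-induced nuclear body protein, was at −0.03 and at 0.06 with a correction for transcript length and GC content. Their signs changed when a single library was left out as well, with ranges of −0.07 to 0.17 for TNFRSF10B and −0.43 to 0.27 for TP53INP1.

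All 4 repair genes were below 0, with a median of −0.15, but the group ran from −0.81 for DDB2 to −0.0013 for XPC. DDB2, the damaged-DNA binding subunit of nucleotide excision repair and the gene whose p53 element above had no mismatch, had 31.6 and 38.7 CPM in the anti-GAA libraries and 53.02 and 70.1 CPM in the controls. Both anti-GAA libraries were lower, and the log2 fold change of −0.81 (SE 0.24, 95% interval −1.37 to −0.24, edgeR adjusted p = 0.95) was the lowest of the members. It equals a level of 0.572 times the control, with an unadjusted p of 0.0117 in edgeR. When a library was left out, the DDB2 value ran from −1.003 to −0.58.

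XPC, which finds the lesion in nucleotide excision repair, differed between replicates by more than between conditions (27.1 and 38.2 CPM against 24.3 and 41.2 CPM), and its sign was positive with DESeq2's size factors (0.0042). POLH, the translesion polymerase eta, was at −0.24. RRM2B, the p53-induced subunit of ribonucleotide reductase, was at −0.05, at 0.08 with the length and GC correction and at 0.13 without anti-GAA ASO replicate 1.

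Of the 5 tested metabolism and stress genes, 3 were below 0 and 2 above, with a median of −0.07. FDXR, the mitochondrial ferredoxin reductase, had 98.6 and 101.4 CPM in the anti-GAA libraries and 109 and 191 CPM in the controls. Control ASO replicate 2 stood far above the other libraries. The log2 fold change was −0.59 (SE 0.28, edgeR adjusted p = 0.996) and −0.12 without that library.

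GDF15, a secreted stress cytokine, had 571 and 728 CPM in the anti-GAA libraries and 395 and 569.5 CPM in the controls. Both anti-GAA libraries were higher, though anti-GAA ASO replicate 1 and control ASO replicate 2 were nearly equal. The log2 fold change was 0.43 (SE 0.25, edgeR adjusted p = 0.996) and ran from 0.18 to 0.73 when a library was left out.

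TP53I3, a quinone oxidoreductase, was at −0.40, and at 0.03 without control ASO replicate 2, which held 32.2 CPM where the others held 19.1 to 20 CPM. SESN1, a sestrin that restrains mTORC1, was at −0.07, at 0.0046 with the length and GC correction, and at 0.23 without anti-GAA ASO replicate 1 and 0.09 without control ASO replicate 2. TIGAR, a regulator of glycolysis, was at 0.07, at −0.03 under scaling to total counts, and at −0.03 also without anti-GAA ASO replicate 2 or without control ASO replicate 1.

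**Figure D2:**
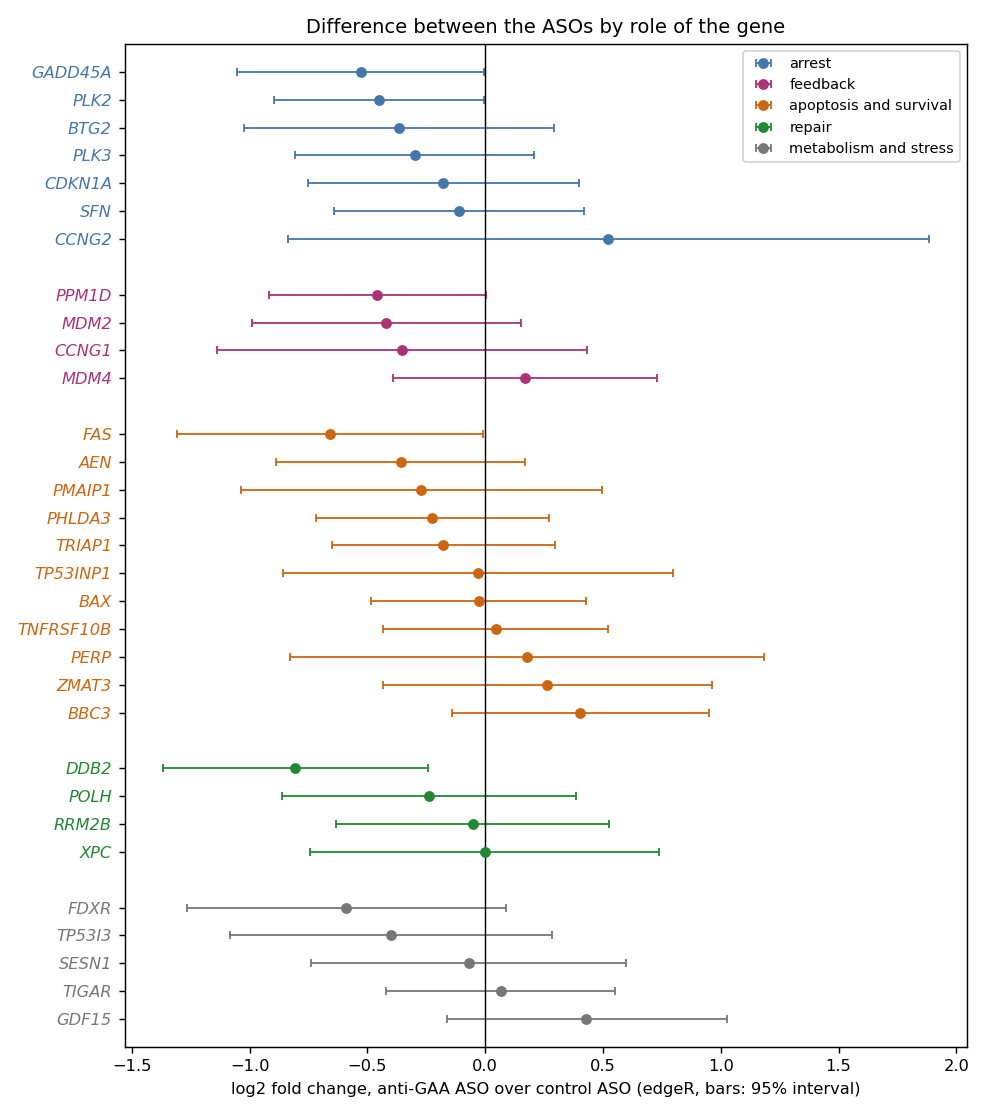
log2 fold change of each tested member (anti-GAA ASO over control ASO, edgeR, 2 libraries per condition) with its 95% interval as a bar, coloured by role. The intervals of DDB2, FAS, PLK2 and GADD45A lie below 0 before adjustment over all genes, those of the other 27 members include 0, and CCNG2 has the widest interval.

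The spread between libraries was as large as the differences for most members. In 19 of 31 members the gap between the control libraries was larger than the size of the log2 fold change. Replicate 2 was higher than replicate 1 in both conditions for 15 members and lower in both for 10. These counts were not made over all tested genes, so they do not set the members apart. Over all tested genes the first principal component (52.7% of variance) also separated the replicate numbers. The log2 difference of control ASO replicate 2 over replicate 1 had a median of 0.17 and ran from −0.85 (PMAIP1) to 1.38 (CCNG2).

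Differences were therefore also read within each replicate number, although no source used here ties libraries of the same number to 1 day or batch. The members' median log2 difference in CPM, anti-GAA ASO minus control ASO, was −0.12 in replicates 1 and −0.25 in replicates 2. In both numbers 15 members were lower, where 30% of all tested genes were lower in both, 7 were higher, against 31.8% of all, and 9 differed in sign. DDB2 was at −0.74 and −0.85, PPM1D at −0.39 and −0.53, PLK2 at −0.49 and −0.42, and GADD45A at −0.42 and −0.62, so these 4 had differences of like size in both. FAS (−0.41 and −0.94), FDXR (−0.15 and −0.92), MDM2 (−0.12 and −0.67) and AEN (−0.19 and −0.56) were lower in both but mainly in replicates 2. CDKN1A differed in sign, at 0.20 and −0.59, as did TP53I3, at 0.06 and −0.75, and MDM4, at −0.17 and 0.52. GDF15 (0.53 and 0.35), CCNG2 (0.46 and 0.52) and BBC3 (0.65 and 0.19) were higher in both.

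**Figure D3:**
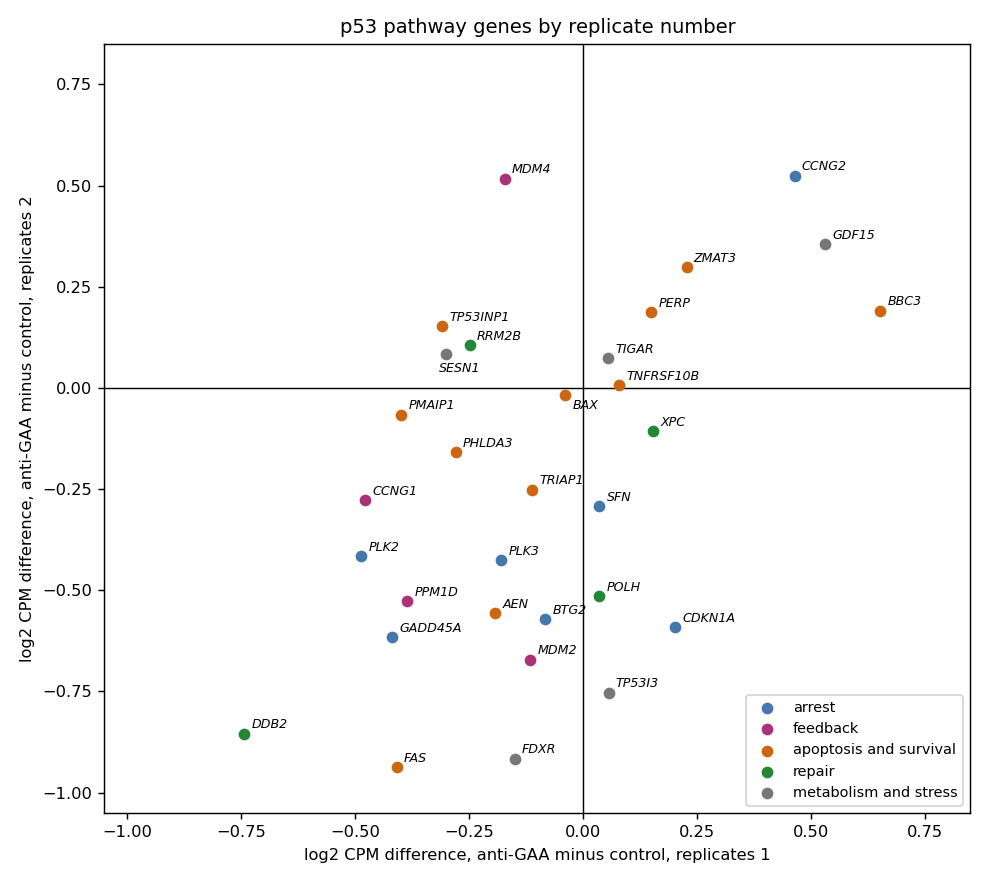
Difference in log2 CPM (anti-GAA ASO minus control ASO) between libraries of replicate number 1 on the x axis and of number 2 on the y axis, 1 point per tested member, coloured by role. The lower left quadrant holds 15 members with DDB2 farthest to the left and FAS and FDXR lowest, the upper right holds 7, and CDKN1A lies in the lower right.

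The sign held when each library was left out in turn for 16 of the 31 tested members, and the same 16 kept it in every alternative fit. Of these, 13 lay below 0 (GADD45A, PLK2, PLK3, MDM2, PPM1D, BAX, FAS, AEN, PHLDA3, TRIAP1, DDB2, POLH and FDXR). The 3 above 0 were BBC3, ZMAT3 and GDF15. The same counts were not made over all tested genes, so they do not set the members apart. A kept sign does not measure size, and BAX kept it at −0.03, with nearly equal levels in all libraries. For the other 15, CDKN1A among them, leaving out some library turned the sign. At an unadjusted p under 0.05, 1 member was lower without anti-GAA ASO replicate 1 (FAS), 2 without anti-GAA ASO replicate 2 (CCNG1 and DDB2), 6 without control ASO replicate 1 (BTG2, GADD45A, MDM2, DDB2, FDXR and TP53I3) and 0 without control ASO replicate 2. Of all genes tested in those fits, 3.33%, 3.92%, 3.86% and 1.86% were lower by that rule, in the same order, and 0.988%, 2.02%, 1.59% and 1.59% were higher. By that same rule CCNG2 was higher without anti-GAA ASO replicate 1 or control ASO replicate 2, and GDF15 without control ASO replicate 2.

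Further genes of the pathway were read from lists of upstream regulators, further p53 targets and genes that p53 represses through the DREAM complex. Of the further targets, 56 of 59 were tested, and no gene of the list passed the test in edgeR or DESeq2. Their median log2 fold change was −0.23, with 38 below and 18 above 0. At an unadjusted p under 0.05 in edgeR 3 of the 56 were lower and 1 higher, beside 3.46% and 1.02% of all tested genes. DGKA, a diacylglycerol kinase, had 19.9 and 19.3 CPM in the anti-GAA libraries against 26.5 and 35.0 CPM in the controls. The log2 fold change of DGKA was −0.65 (SE 0.23), beside −0.52 (SE 0.20) for TGFA, a ligand of the EGF receptor, and −0.68 (SE 0.26) for FBXW7, a substrate receptor of a ubiquitin ligase. The higher gene was SESN2, a sestrin that is also a target of the stress factor ATF4, named after its values were seen. It had 136 and 71.2 CPM against 68.5 and 49.1 CPM and a log2 fold change of 0.82 (SE 0.34). ATF3, a stress-induced transcription factor, had the lowest log2 fold change of the list at −0.91 (SE 0.41) and is also named after its values were seen. Its levels of 193 and 92.5 CPM in the anti-GAA libraries and 346 and 191 CPM in the controls overlapped. The conditions did not overlap for 16 lower (28.6%) and 8 higher (14.3%) genes of this list, against the 16.9% and 15.5% of all tested genes given above.

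Of the upstream regulators, 24 of 25 were tested, with 14 above and 10 below 0 and a median of 0.03. ATR, the kinase that senses replication stress, had 7.48 and 7.70 CPM in the anti-GAA libraries and 13.0 and 13.6 CPM in the controls. The replicates lay close in each condition and the log2 fold change was −0.81 (SE 0.25, edgeR adjusted p = 0.987). PRKDC, the catalytic subunit of DNA-dependent protein kinase, was at −0.27 (SE 0.19), and CDKN2A, whose ARF product binds MDM2, was at 0.22 (SE 0.19). None of the list passed the test in edgeR. At an unadjusted p under 0.05 in edgeR 1 of the 24 was lower, beside 3.46% of all tested genes.

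Of the genes repressed through DREAM, 23 of 24 were tested, with 13 above and 10 below 0 and a median of 0.04. None passed the test in edgeR or had an unadjusted p under 0.05. The values were 0.33 (SE 0.22) for PRC1, a spindle midzone protein, 0.26 (SE 0.19) for CCNB2, cyclin B2, and −0.34 (SE 0.25) for CENPF, a kinetochore protein. PRC1 and CCNB2 were higher in both anti-GAA libraries, and CENPF overlapped.

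**Figure D4:**
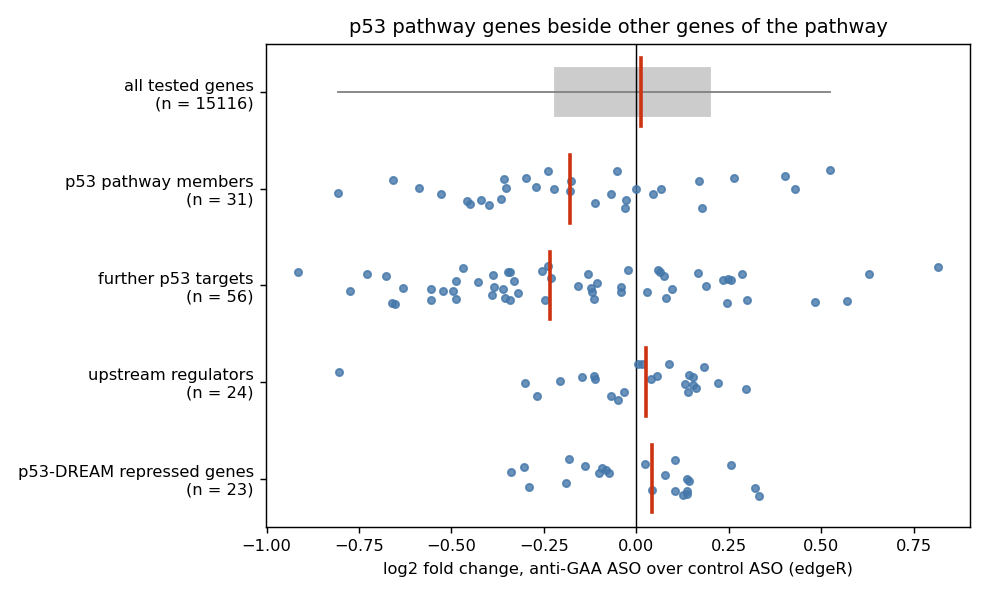
log2 fold change (anti-GAA ASO over control ASO, edgeR) of the p53 pathway members and 3 further lists, 1 point per tested gene, with red lines at the medians. The grey box spans the 25th to 75th percentile of all 15116 tested genes and its line the 5th to 95th, and the medians of the members (−0.18) and the further p53 targets (−0.23) lie below that of all genes (0.01).

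Matches to the ASO's target were searched as perfect runs in the longest annotated transcript of each gene. Sequence outside it, such as introns, and imperfect repeats were not searched. In the longest annotated transcript, a perfect run of GAA repeats of at least 12 nt was found for 2 of the 32, TP53INP1 (18 nt) and TNFRSF10B (13 nt), with log2 fold changes of −0.03 and 0.05, whose signs depend on the processing as given above. The other members had runs of at most 10 nt, DDB2, FAS, PLK2 and GADD45A among them. Of 14751 tested genes with a transcript, 374 (2.54%) held such a run, with a median log2 fold change of −0.16 and 267 of them below 0.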

How the data were processed

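RNA-seq of HCT116 cells was analysed in 4 libraries, 2 per ASO, with groups and replicate numbers taken from the labels. Per the study's methods the authors trimmed reads with Trimmomatic, aligned them to hg19 with STAR, removed reads on GL contigs and counted Ensembl genes with featureCounts. The values they deposited are raw counts per gene, without normalization. Ensembl release, strand setting and handling of reads that match several genes are not given in the sources used here. Without the strand setting, reads of genes that overlap on opposite strands cannot be told apart, which concerns XPC most (24.6% of its exon bases overlap XPC-AS1). PHLDA3 (18.4% of its exon bases) and TIGAR (18.1%) overlap genes on the same strand, which the strand setting would not resolve. The labels name a total RNA kit and the methods a stranded mRNA kit, and the methods give a shorter transfection than the labels.

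Genes kept by filterByExpr were tested with edgeR 4.0.16 (limma 3.58.1, R 4.3.3), by a quasi-likelihood F-test after TMM scaling. The model held a term for the ASO alone, and p was adjusted over all 15116 tested genes after Benjamini and Hochberg (threshold 0.05). TMM factors ran from 0.941 to 1.07. CPM values are TMM-scaled, and differences within a replicate number use log2 CPM with a prior count of 2. The code was tested on simulated counts. Symbols, exon lengths and transcripts came from GENCODE 44 (GRCh38) by Ensembl identifier (52181 of 63677 matched), and no position was carried over from hg19.

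The members and the further lists were chosen with earlier results of these data known, so no list was tested. All 32 members are named. CDKN1A, MDM2, the 10 members with the smallest p and the member with the largest log2 fold change of each role are given in full. Up to 3 genes with the smallest p of each further list are given with log2 fold change and SE, DGKA and ATR also with levels. A further gene that the rule names is not reported here. Alternatives were scaling to total counts or by the size factors of DESeq2 1.42.0, the DESeq2 test itself, a filter at a mean of 1 CPM or none, the replicate number as a block (also in DESeq2), offsets for transcript length and GC content (mgcv 1.9.3), the block with these offsets, and leaving out each library. The promoter search was added after the data were seen.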

Additional observations from a re-analysis of the deposited data

How the results depend on the processing

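The count of genes called, 0 in edgeR, was 5 with DESeq2, 116 without a filter on low counts, and 0 to 18 when a library was left out, where the condition with 1 library is assumed to vary like the other. No member was called in any of these. With the replicate number as a block it was 258 (207 lower, 51 higher), with the block in DESeq2 58 (45 lower, 13 higher), and with the block and the length and GC correction 281 (184 lower, 97 higher). DDB2 was then the only member called (replicate block: log2 fold change −0.80, adjusted p = 0.0134 in edgeR, 0.0499 in DESeq2, 0.0107 with the correction). Of the further targets, the replicate block in edgeR called ATF3 (adjusted p = 0.00669), lower, and SESN2 (adjusted p = 0.0198), higher. No source used here says that a replicate number marks a shared day or batch. Across genes the deviations of same-numbered libraries from their group means had r = 0.564, and the first principal component (52.7% of variance) separated the numbers and the second (33.1%) the ASOs. The median of the members was −0.28 under scaling to total counts, which moved the median of all genes to −0.08, and −0.282 to −0.0308 when a library was left out. Signs turned for TNFRSF10B (−0.0502) and TIGAR (−0.0282) under scaling to total counts, and with the length and GC correction, without and with the replicate block, for TP53INP1 (0.0598, 0.0431), RRM2B (0.0784, 0.0713) and XPC (0.0273, 0.0397), and without it for SESN1 (0.0046). XPC was also above 0 with DESeq2's size factors (0.0042), DESeq2 (0.0035), the replicate block (0.0164) and the block in DESeq2 (0.0272). Over the fits that each left out a library, values ran from −0.45 to 0.0642 for CDKN1A, −0.69 to 0.0408 for BTG2, −0.35 to 0.11 for SFN, −0.39 to 1.39 for CCNG2, −0.00703 to 0.37 for MDM4, −0.82 to 0.00623 for CCNG1, −0.63 to 0.21 for PMAIP1, −0.0747 to 0.17 for TNFRSF10B, −0.43 to 0.76 for PERP, −0.43 to 0.27 for TP53INP1, −0.34 to 0.43 for XPC, −0.27 to 0.13 for RRM2B, −0.45 to 0.23 for SESN1, −0.0299 to 0.17 for TIGAR and −0.73 to 0.0289 for TP53I3. The cause of these changes was not tested. Levels, and so the precision from counting, were lowest for TP53INP1 (4.34 to 7.03 CPM) and ZMAT3 (5.37 to 7.27 CPM), and with 2 libraries per condition the intervals are wide.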
